A study of Mus musculus with 10 samples.

Results

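Chemokines and interleukins are the secreted signals by which vessel wall and immune cells call to each other. They were taken as all rows of the gene table from thoracic aorta whose gene symbol begins with *Ccl* and a number, or consists of *Cxcl* and a number, of *Cx3cl1*, or of *Il* and a number with or without a or b. The rule gave 76 of 55426 rows under 70 symbols, with 46 chemokine and 30 interleukin rows. RNA-Seq had been made from 3 control aortas and 3 *Prdm16*SMKO aortas, and ChIP-Seq with an anti-Flag antibody from primary vascular fibroblasts that carried Flag-tagged PRDM16 (1 library) or an empty vector (1 library). PRDM16 is a transcription factor of brown fat, heart and arterial smooth muscle, and the comparison asks how the transcripts of the vessel wall differ when smooth muscle cells lack it.

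In what follows, knockout stands for *Prdm16*SMKO. The control mice are labelled Prdm16f/f, which names floxed *Prdm16* alleles and no recombinase, and the *Prdm16*SMKO mice are labelled Prdm16f/f, SMMHC-CreERT2. SMMHC-CreERT2 is a tamoxifen-activated Cre recombinase under the promoter of *Myh11*, the smooth muscle myosin heavy chain, so that endothelial, adventitial and immune cells of these aortas keep *Prdm16*. The study's methods count Cre mice among its controls as well, and which control genotype gave these aortas is known here from the labels only. Where the controls lack Cre, an effect of the Cre transgene itself cannot be told apart from that of the deletion. Sex, age, tamoxifen dosing and time of day of each aorta are not in the sample labels. The study places the SMMHC-CreERT2 transgene on the Y chromosome, by which the knockout mice are male. Its methods describe a tamoxifen course by oral gavage and a washout period. The labels do not say whether the 3 samples of a group are separate animals. *P* values therefore measure the spread between these samples only. The fibroblasts are labelled wild type, and the PRDM16 in them was introduced by lentivirus, with 48 hours of infection and 1 week under puromycin at 2 μg/mL. The peaks are therefore those of introduced, tagged PRDM16 in a cell type other than smooth muscle.

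Chemokines bind G protein-coupled receptors on leukocytes and set the direction in which those cells move. They are grouped by the spacing of their first cysteines into CC, CXC and CX3C types, and some are made without inflammation, such as the lymphoid and stromal chemokines, while others are induced by NF-κB or interferon. Interleukins act through several receptor families, of which many signal by JAK kinases and STAT proteins, and the interleukin-1 and interleukin-17 families signal to NF-κB.

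The level of a transcript is given in TPM (the share of a transcript among all transcripts of a library), which corrects for transcript length and for library size, so that genes can be compared within an aorta. Read counts cannot be had from TPM, and the depth is therefore unknown and no counting interval is given. The 15668 genes whose mean over the 6 aortas reached 0.5 TPM were tested with limma on log2(TPM + 0.1), and a gene is referred to as called when its Benjamini-Hochberg adjusted *P* value over all tested genes was under 0.05. Log2 fold changes are knockout over control on that scale. The added 0.1 understates the change of low genes, but a row listed at 0 in some aortas can show a larger change than its group means do. Exact permutation, with 3 aortas in each group, has a smallest 2-sided *P* value of 0.1 and was not used.

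Of the 76 rows, 22 were listed at 0 in all 6 aortas, 30 were above 0 in some aorta but had a mean of at most 0.498 TPM, and 24 rows of 21 symbols were tested. The rows at 0 included *Il4*, *Il13*, *Il17a*, *Ccl3*, *Ccl4*, *Cxcl2* and *Cxcl3*, which encode cytokines of activated lymphocytes, macrophages and neutrophil recruitment. The tested rows were 18 of chemokines and 6 of interleukins, and only 8 had a mean TPM of at least 5.

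The 250 bases upstream of the start site are shown here for 4 members with a PRDM16 peak at the promoter, *Cxcl12*, *Ccl27a*, *Cx3cl1* and *Cxcl10*, and for 3 members whose aorta values did not overlap between the groups, *Ccl12*, *Ccl21a* and *Il16*. They are RefSeq sequences of GRCm38.p6, written 5′ to 3′ along the strand of the gene, and capitals mark matches on either strand to an NF-κB type, AP-1, STAT or GATA core motif, whose letters follow the sequences. *Cxcl12* is chr6:117168285-117168534 (forward strand), *Ccl27a* is chr4:41774102-41774351 (reverse), *Cx3cl1* is chr8:94771930-94772179 (forward), *Cxcl10* is chr5:92348890-92349139 (reverse), *Ccl12* is chr11:82101595-82101844 (forward), *Ccl21a* is chr4:42773992-42774241 (reverse) and *Il16* is chr7:83735540-83735789 (reverse).
Cxcl12: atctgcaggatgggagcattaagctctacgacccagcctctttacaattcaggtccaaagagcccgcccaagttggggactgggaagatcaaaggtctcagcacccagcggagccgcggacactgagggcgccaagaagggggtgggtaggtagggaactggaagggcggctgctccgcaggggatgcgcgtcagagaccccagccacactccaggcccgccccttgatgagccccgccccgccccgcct
Ccl27a: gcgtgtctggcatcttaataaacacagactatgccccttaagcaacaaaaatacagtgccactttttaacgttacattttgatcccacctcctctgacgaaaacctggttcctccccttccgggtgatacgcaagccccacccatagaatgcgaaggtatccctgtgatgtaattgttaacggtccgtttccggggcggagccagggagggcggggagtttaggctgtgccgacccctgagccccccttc
Cx3cl1: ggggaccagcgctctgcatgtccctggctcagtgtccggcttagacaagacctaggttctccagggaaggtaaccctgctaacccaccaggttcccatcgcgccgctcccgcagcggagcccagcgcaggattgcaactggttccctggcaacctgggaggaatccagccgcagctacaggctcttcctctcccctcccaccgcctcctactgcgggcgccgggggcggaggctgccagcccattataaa
Cxcl10: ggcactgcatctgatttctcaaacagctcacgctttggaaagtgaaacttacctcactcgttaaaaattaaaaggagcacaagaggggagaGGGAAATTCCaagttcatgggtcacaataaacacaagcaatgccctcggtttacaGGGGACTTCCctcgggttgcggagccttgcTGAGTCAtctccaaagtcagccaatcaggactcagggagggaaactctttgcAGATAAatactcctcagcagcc
Ccl12: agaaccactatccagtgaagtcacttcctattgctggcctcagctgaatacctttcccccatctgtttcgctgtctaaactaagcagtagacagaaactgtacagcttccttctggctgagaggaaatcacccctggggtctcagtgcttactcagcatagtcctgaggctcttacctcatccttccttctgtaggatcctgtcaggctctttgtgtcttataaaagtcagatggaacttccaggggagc
Ccl21a: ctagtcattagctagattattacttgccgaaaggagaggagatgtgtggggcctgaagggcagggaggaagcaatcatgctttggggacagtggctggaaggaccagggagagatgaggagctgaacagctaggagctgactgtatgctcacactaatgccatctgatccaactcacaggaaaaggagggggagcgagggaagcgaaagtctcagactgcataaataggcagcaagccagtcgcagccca
Il16: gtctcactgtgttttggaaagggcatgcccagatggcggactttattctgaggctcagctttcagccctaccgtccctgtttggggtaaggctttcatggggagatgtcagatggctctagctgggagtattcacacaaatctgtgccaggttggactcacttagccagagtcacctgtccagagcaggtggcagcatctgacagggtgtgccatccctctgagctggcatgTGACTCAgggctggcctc

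The *Cxcl10* stretch held matches to the NF-κB type motif that began 159 and 104 bases upstream of the start site, an AP-1 match 74 bases upstream and a GATA core match 22 bases upstream. The *Il16* stretch held an AP-1 match 18 bases upstream. None of the 4 motifs was found in the other 5 stretches. *Ccl27a* and *Il16* have 3 listed start sites each, of which 1 is printed. At start sites not printed, *Ccl27a* had AP-1 and GATA core matches and *Il16* had an NF-κB type match, and the counts that follow include these. Motifs were counted over 300 bases around each listed start site (250 upstream and 50 downstream), in 47 members with a promoter sequence and in all 27025 genes. The NF-κB type motif, searched as GGG followed after any 3 bases by TTCC, was present in 10 members (21.3%) and in 6.31% of all genes. The AP-1 motif, to which dimers of FOS and JUN proteins bind and which was searched as TGANTCA, was present in 12 members (25.5%) and in 8.97% of all genes. The STAT motif, searched as TTCNNNGAA, was present in 4 members (8.51%) and in 9.55% of all genes. The core motif of the GATA family of transcription factors, searched as AGATAA, was present in 8 members (17%) and in 12.7% of all genes. These shares were not tested, matches of different motifs could overlap, and a match is a string of letters rather than a site shown to be bound. For GC content and CpG count, each gene was given its highest value over its listed start sites, which favors genes with several. So taken, the members' promoters had a median GC content of 49% and 4 CpG per 300 bases, against 53.3% and 8 over all genes. The 4 members with a PRDM16 peak had medians of 59.2% and 15.5. No promoter sequence was used for *Ccl2*, *Ccl11*, *Cxcl16*, *Il15* or *Il17b*.

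Before the members, the deleted gene was checked. *Prdm16* (ENSMUSG00000039410) had TPM of 56.1, 47.6 and 40.3 in control and 23.3, 33.3 and 23.4 in knockout aortas. The groups did not overlap, but the difference was not called (log2 fold change −0.85, SE 0.18, limma adjusted *P* = 0.0725). Cells without Cre keep the gene, and which exons are deleted is not given in the labels. Markers of smooth muscle (*Myh11*, *Acta2*, *Tagln*, *Cnn1* and *Smtn*) were abundant in every aorta. Their summed level was 20309 to 23581 TPM in the control and 13483 to 17399 TPM in the knockout aortas, and 0 of the 5 were called. Log2 values of any pair of aortas had a Pearson correlation over genes of 0.9266 to 0.9439. In this bulk tissue, fewer cells of a type and less RNA per cell cannot be told apart.

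Of the 24 tested rows, 1 was called, *Il17b*, which rose in knockout aortas, and 0 were called lower. That is 4.17% of the rows, against 1.07% of all tested genes (0.389% higher and 0.683% lower). At an unadjusted *P* value under 0.05 by limma there were 9 rows (37.5%, against 12.7% of all tested genes), 5 higher and 4 lower. Among them were *Ccl12* and a contig row of *Ccl21a* that was at 0 in every knockout aorta. The groups did not overlap for 6 rows (25%, against 19% of all tested genes). These were *Il17b*, *Ccl12*, *Cxcl12* and *Cxcl16*, higher in every knockout aorta, against a background of 4.08% in that direction, and *Il16* and *Ccl21a*, lower in every knockout aorta, against 14.9%. The median log2 fold change of the 24 rows was −0.09 and that of all tested genes was −0.12, with 10 rows above and 14 below 0. With aortas rescaled by median ratio, the medians were 0.02 and 0.00, so fold changes are read here against the −0.12 of all tested genes. *Ccl12* and a contig row of *Ccl27a* reached the filter of 0.5 TPM only through the knockout aortas, and a contig row of *Ccl21a* and the chromosome 4 row of *Ccl21b* only through the control aortas. The counts and medians over the 24 rows include these rows and are a description only.

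**Figure D1:**
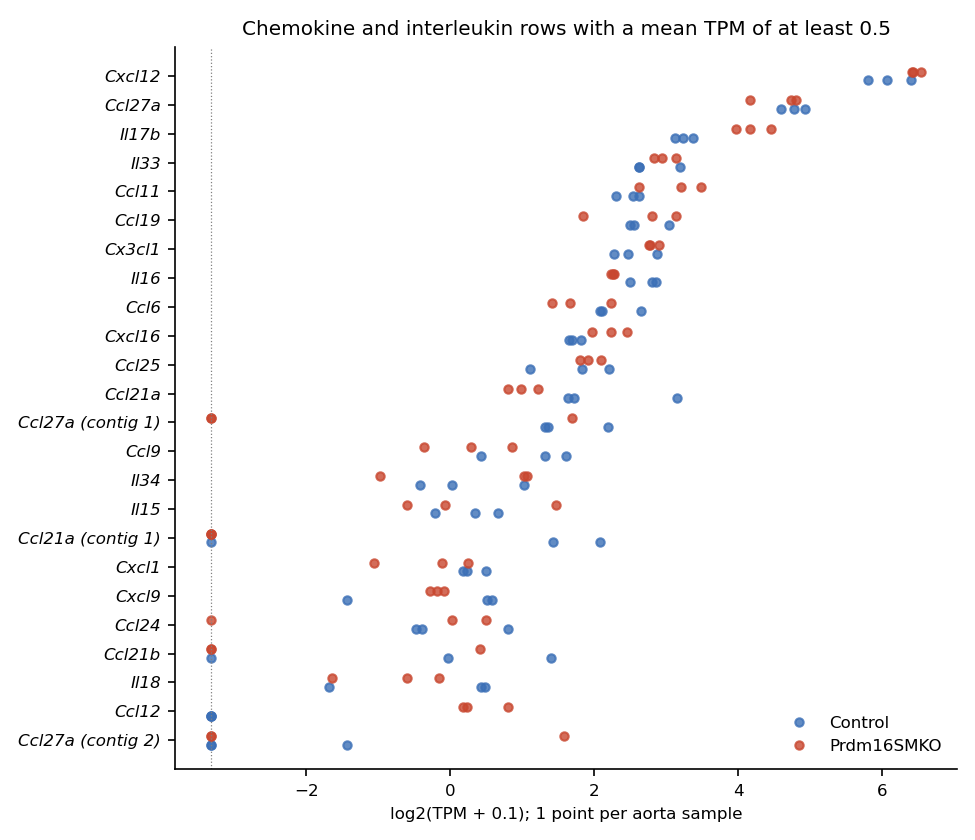
The levels of the 24 tested rows are plotted as log2(TPM + 0.1), ordered by mean, with 3 control (blue) and 3 *Prdm16*SMKO (red) aortas each and a dotted line at a TPM of 0. *Cxcl12* stands highest, with 55.6 to 93.2 TPM, and the *Ccl12* controls and several contig copies lie on the dotted line.

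*Il17b* (ENSMUSG00000024578; chromosome 18, 61684887 to 61692538, forward strand) encodes IL-17B, a member of the interleukin-17 family that binds the receptor IL-17RB and is made by tissue cells rather than by T cells. Its TPM were 10.2, 8.58 and 9.32 in control and 17.9, 21.8 and 15.6 in knockout aortas. Every knockout value lay above every control value, and the mean rose from 9.37 ± 0.816 to 18.4 ± 3.18 TPM (SD, n = 3 each), to 197% of the control mean. The log2 fold change was 0.96 with an SE of 0.16 (95% interval, 0.59 to 1.33; limma adjusted *P* = 0.0338). This made *Il17b* the member with the smallest adjusted *P* value, and the member next in level after *Cxcl12* and *Ccl27a*. The call was lost in 7 of 15 alternative settings, among them without any 1 of the control aortas 1, 2 and 3 (adjusted *P* = 0.0754, 0.124 and 0.113 by limma) and without knockout aorta 1 or 2 (0.112 and 0.0796 by limma), while the log2 fold change stayed between 0.83 and 1.07. The libraries do not mark strand, and a gene on the opposite strand, *Gm38165*, overlaps *Il17b* by 1339 bp with a mean of 0 TPM in control and 0.167 TPM in knockout aortas.

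The other interleukin-17 genes that the rule took, *Il17a* and *Il25*, were listed at 0 in all 6 aortas. The receptor *Il17rb* had a mean of 0.64 TPM in both groups (log2 fold change 0.02, limma adjusted *P* = 0.995), and *Il17ra*, the shared chain, had 1.84 ± 0.278 TPM in control and 2.38 ± 0.338 TPM in knockout aortas (SD, n = 3 each; limma adjusted *P* = 0.592). Neither receptor difference exceeded the spread between aortas by this test. The smooth muscle markers given before were lower in sum in all 3 knockout aortas, as *Il17b* was higher, and their part in this result was not tested.

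**Figure D2:**
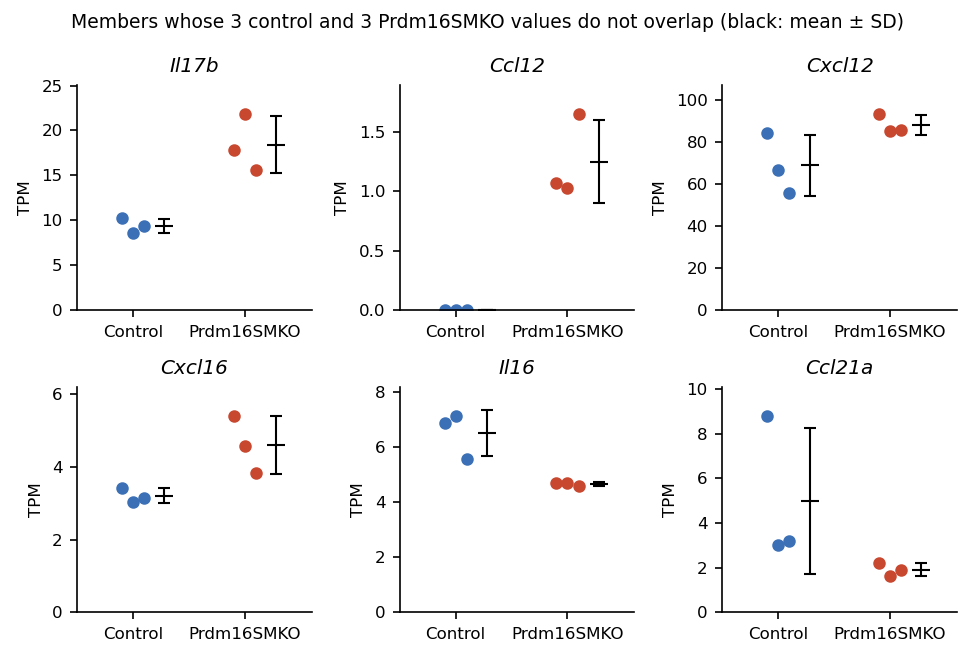
TPM per aorta, on a linear axis from 0, are plotted for the 6 members whose groups did not overlap, with the mean and SD of each group in black. *Il17b* lies at 8.58 to 10.2 TPM in control and 15.6 to 21.8 TPM in knockout aortas, and the control values of *Ccl12* are all 0.

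Among the monocyte-attracting CC chemokines, *Ccl12* (ENSMUSG00000035352; chromosome 11, 82101845 to 82103400, forward strand), a ligand of the receptor CCR2 in mice, was listed at 0 in all 3 control aortas. It had TPM of 1.07, 1.03 and 1.65 in knockout aortas. The groups did not overlap, and since the control values are listed at 0 no fold change is given. The difference was not called (limma adjusted *P* = 0.0643), but it was called without a filter on TPM (0.0214), with median-ratio rescaling (0.0314), with quantile normalization (0.0365) and without limma's mean-variance trend (0.00417), within a range of adjusted *P* values by limma of 0.00417 to 0.293 over 13 alternatives. Because *Ccl12* reached the filter only through the knockout aortas, where it was high, these *P* values are given as a description.

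The related *Ccl2*, *Ccl7* and *Ccl8* did not reach the mean TPM needed for the test, and their groups overlapped. *Ccl2*, the main monocyte chemokine, had TPM of 0.44, 0 and 0.11 in control and 0.48, 0.21 and 0.49 in knockout aortas. *Ccl7* had 0.15, 0.51 and 0.18 TPM in control and 0.37, 1.28 and 0.50 TPM in knockout aortas. *Ccl8* was listed at 0, 0 and 0.38 TPM in control and 1.18, 0 and 1.09 TPM in knockout aortas. Summed with *Ccl12*, the 4 genes stood at 0.59, 0.51 and 0.67 TPM in control and 3.10, 2.52 and 3.73 TPM in knockout aortas, a sum formed after the values were seen and therefore given without a test.

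These levels are low beside those of macrophage markers, which did not separate the groups. All 10 macrophage markers were tested and 0 were called, with a summed level of 84.5 to 117 TPM in control and 66.8 to 117 TPM in knockout aortas. The receptor *Ccr2* had means of 0.257 TPM in control and 0.377 TPM in knockout aortas and was not tested. T cell markers had a summed level of 1.35 to 4.34 TPM in control and 3.31 to 14.4 TPM in knockout aortas, with 3 of 8 tested and 0 called, and their part in the *Ccl12* values was not tested.

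*Ccl11* (ENSMUSG00000020676; chromosome 11, 82057823 to 82062955, forward strand) encodes eotaxin, which attracts eosinophils through CCR3, and lies between *Ccl7* and *Ccl12*. It had TPM of 5.71, 6.08 and 4.85 in control and 11.1, 6.06 and 9.16 in knockout aortas, so that knockout aorta 2 lay within the control range. The means were 5.55 ± 0.631 and 8.77 ± 2.54 TPM (SD, n = 3 each). The difference was not called (log2 fold change 0.61, SE 0.23, limma unadjusted *P* = 0.0267, limma adjusted *P* = 0.312). Its receptor *Ccr3* was listed at 0 in every control aorta and reached at most 0.03 TPM. Mast cell markers, of which 5 of 5 were tested and 0 called, had a summed level of 4 to 6.58 TPM in control and 6.36 to 10.5 TPM in knockout aortas, and their part was not tested.

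**Figure D3:**
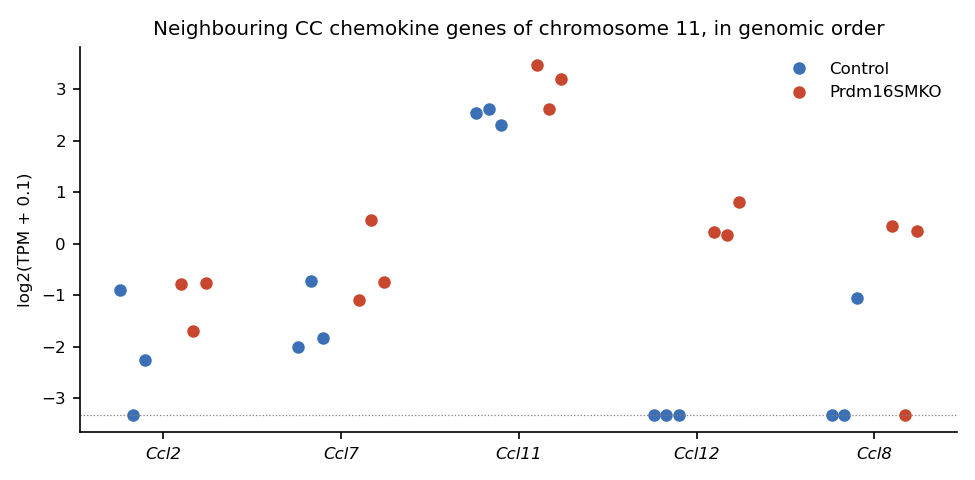
Log2(TPM + 0.1) is plotted per aorta for *Ccl2*, *Ccl7*, *Ccl11*, *Ccl12* and *Ccl8*, which follow each other on chromosome 11, with a dotted line at a TPM of 0. *Ccl12* is the member of the row in which the groups are apart, with 3 control aortas at 0 and knockout aortas at 1.03 to 1.65 TPM.

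Elsewhere on chromosome 11, the CC chemokines *Ccl6* and *Ccl9* are ligands of CCR1 made by macrophages, and their fold changes had the opposite sign. *Ccl6* had means of 4.84 ± 1.16 TPM in control and 3.40 ± 1.06 TPM in knockout aortas (SD, n = 3 each; log2 fold change −0.51, limma adjusted *P* = 0.469). *Ccl9* had 2.19 ± 0.869 and 1.17 ± 0.517 TPM (SD, n = 3 each; −0.85, limma adjusted *P* = 0.452). The groups overlapped for both. Their summed level was 8.58, 7.15 and 5.36 TPM in control and 4.18, 3.24 and 6.30 TPM in knockout aortas.

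*Cxcl12* (ENSMUSG00000061353; chromosome 6, 117168535 to 117181367, forward strand), the stromal chemokine that binds CXCR4 and is cleared by ACKR3, had the highest level of all members. It made up 38.3% to 41.8% of their summed TPM in control and 44.3% to 45.9% in knockout aortas. Its TPM were 84.4, 66.7 and 55.6 in control and 93.2, 84.9 and 85.7 in the knockout aortas, so that control aorta 1 lay within 1 TPM of the lowest knockout value and the groups did not overlap. The means were 68.9 ± 14.5 and 87.9 ± 4.61 TPM (SD, n = 3 each), a log2 fold change of 0.37 with an SE of 0.16 that was not called (95% interval, 0.02 to 0.72; limma adjusted *P* = 0.366). The receptor *Cxcr4* had means of 0.243 TPM in control and 0.603 TPM in knockout aortas, below the level for a test.

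*Ackr3*, the decoy receptor for CXCL12, was the receptor with the larger change of those whose groups did not overlap. It had TPM of 14.7, 16.04 and 14.8 in control and 12.5, 8.16 and 12.2 in knockout aortas, lower in every knockout aorta (log2 fold change −0.49, SE 0.18, limma adjusted *P* = 0.308). Fibroblast markers, a group of 6 that were all tested and not called, summed to 926 to 1171 TPM in control and 789 to 1127 TPM in knockout aortas. Endothelial markers, also 6 tested and 0 called, summed to 94.4 to 117 TPM and 64.6 to 146 TPM, so that the ranges overlapped for both cell types.

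The membrane-anchored chemokines are shed by proteases and in their bound form hold leukocytes to the endothelium. *Cxcl16* (ENSMUSG00000018920; chromosome 11, 70453983 to 70459984, reverse strand), the ligand of CXCR6 and a scavenger receptor for oxidized lipoprotein, had TPM of 3.43, 3.04 and 3.14 in control and 5.39, 4.58 and 3.82 in knockout aortas. Every knockout value was above every control value, with means of 3.2 ± 0.203 and 4.60 ± 0.785 TPM (SD, n = 3 each; log2 fold change 0.50, SE 0.20, limma adjusted *P* = 0.349), and the difference was not called. *Cx3cl1* (ENSMUSG00000031778; chromosome 8, 94772009 to 94782427, forward strand), or fractalkine, had TPM of 5.46, 7.25 and 4.75 in control and 6.73, 6.67 and 7.37 in knockout aortas. Control aorta 2 lay among the knockout values, and the log2 fold change was 0.27 (SE 0.19, limma adjusted *P* = 0.6). Their receptors *Cxcr6* and *Cx3cr1* had means of at most 0.367 TPM in either group and were not tested.

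The lymphoid chemokines CCL19 and CCL21 guide CCR7-bearing dendritic cells and lymphocytes into lymphatic vessels and nodes. *Ccl21a* (ENSMUSG00000094686; chromosome 4, 42772860 to 42773993, reverse strand) had TPM of 8.78, 3.02 and 3.18 in control and 2.23, 1.65 and 1.88 in knockout aortas. All knockout values were below all control values, and control aorta 1 stood far above the other controls. The knockout mean was 38.5% of the control mean, but the difference was not called (4.99 ± 3.28 and 1.92 ± 0.292 TPM, SD, n = 3 each; log2 fold change −1.16, SE 0.39, limma adjusted *P* = 0.25). *Ccl21* has near-identical copies, and how reads were shared among them is not given in the sources used here, so single rows are uncertain. Summed over the 6 *Ccl21* rows, the level was 14.1, 9.88 and 3.18 TPM in control and 3.81, 2.75 and 1.88 TPM in knockout aortas, and control aorta 3 then lay within the knockout range (log2 fold change −1.47, limma adjusted *P* = 0.253).

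Markers of lymphatic endothelium, a known source of CCL21, had a summed level of 2.32 to 3.44 TPM in control and 1.63 to 2.08 TPM in knockout aortas, with 2 of 4 tested and 0 called, and each of the 4 was above 0 in at least 1 aorta. B cell markers summed to 4.89 to 9.36 TPM and 3.45 to 3.76 TPM, with 1 of 5 tested and 0 called. The part of these cells in the *Ccl21* values was not tested. *Ccl19* had TPM of 5.55, 5.79 and 8.11 in control and 8.72, 3.50 and 6.87 in knockout aortas, with overlapping groups (log2 fold change −0.10, limma adjusted *P* = 0.932, and 0.02 after rescaling by median ratio). Their receptor *Ccr7* did not exceed 0.14 TPM in any aorta.

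*Ccl27a* (ENSMUSG00000073888; chromosome 4, 41769467 to 41774247, reverse strand), which attracts T cells to skin through CCR10, was second in level. Its TPM were 30.2, 27.3 and 24.1 in control and 27.8, 26.5 and 17.9 in knockout aortas, and the groups overlapped (log2 fold change −0.20, SE 0.19, limma adjusted *P* = 0.696). Among the knockout aortas, one further *Ccl27a* row on an unplaced contig ranged from 0 to 3.14 TPM and another from 0 to 2.89 TPM, which limits what a single row shows, and the 4 rows together had a log2 fold change of −0.27 (limma adjusted *P* = 0.643). The receptor *Ccr10* stood at 1.21, 2.20 and 1.36 TPM in control and 1.28, 2.14 and 1.83 TPM in knockout aortas.

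*Il16* (ENSMUSG00000001741; chromosome 7, 83642825 to 83745726, reverse strand) encodes a chemoattractant for CD4-bearing cells. It had TPM of 6.89, 7.13 and 5.57 in control and 4.70, 4.72 and 4.59 in knockout aortas, lower in every knockout aorta and with little spread in that group. The means were 6.53 ± 0.84 and 4.67 ± 0.07 TPM (SD, n = 3 each), and the difference was not called (log2 fold change −0.47, SE 0.17, limma adjusted *P* = 0.293). Over 10303 bp *Il16* overlaps *Stard5* on the opposite strand, which had means of 3.16 TPM in control and 4.16 TPM in knockout aortas, and reads there cannot be told apart without strand.

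The remaining interleukins with levels in this range did not separate the groups. *Il33*, an alarmin held in the nuclei of stromal and endothelial cells, had TPM of 9.0, 6.03 and 6.08 in control and 7.56, 6.99 and 8.71 in knockout aortas (log2 fold change 0.16, limma adjusted *P* = 0.787). *Il15*, which supports natural killer cells and memory T cells, had TPM of 0.76, 1.49 and 1.17 in control and 0.56, 0.85 and 2.66 in knockout aortas, with knockout aortas on both sides of all control values (log2 fold change −0.00, SE 0.55, limma adjusted *P* = 0.999, and 0.11 after rescaling by median ratio). *Il34*, a ligand of the macrophage growth factor receptor, and *Il18*, an inflammasome product, stood at log2 fold changes of 0.16 (limma adjusted *P* = 0.947) and −0.54 (limma adjusted *P* = 0.805). Genes of the interleukin-6 and interleukin-12 families, 7 rows, were all below the level for a test, with summed levels of 0.42 to 1.23 TPM in control and 0.06 to 0.74 TPM in knockout aortas. The interleukin-10 family, 5 rows, was listed at 0 in all control aortas and summed to at most 0.25 TPM in a knockout aorta.

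Of the other tested chemokines, *Cxcl1*, a neutrophil attractant, had a log2 fold change of −0.61 (limma adjusted *P* = 0.613), *Cxcl9*, an interferon-induced ligand of CXCR3, had −0.08 (limma adjusted *P* = 0.976), and *Ccl25*, a gut homing chemokine, had 0.23 (limma adjusted *P* = 0.788). *Ccl24*, a further eotaxin, was listed at 0 in knockout aorta 2 and between 0.62 and 1.64 TPM in the other 5 aortas (limma adjusted *P* = 0.731). Neutrophil markers, of which *Ly6g* was at 0 in all aortas and 2 of 5 were tested, summed to 2.17 to 2.82 TPM in control and 0.57 to 1.6 TPM in knockout aortas, and 0 were called. Beside *Cxcl1*, their part was not tested. Of the other marker lists, dendritic cell genes summed to 6.89 to 8.11 TPM in control and 6.66 to 8.55 TPM in knockout aortas, and adipocyte genes to 135 to 619 and 144 to 479 TPM. Mesothelial genes summed to 0.11 to 2.97 and 2.76 to 4.7 TPM, red cell genes to 575 to 2760 and 453 to 1590 TPM, and immediate-early genes, which respond within minutes to handling, to 256 to 485 and 212 to 318 TPM. Over all 14 marker lists, 0 of 59 tested genes were called by limma, with 15 at an unadjusted *P* value under 0.05, a value that 12.7% of all tested genes had.

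**Figure D4:**
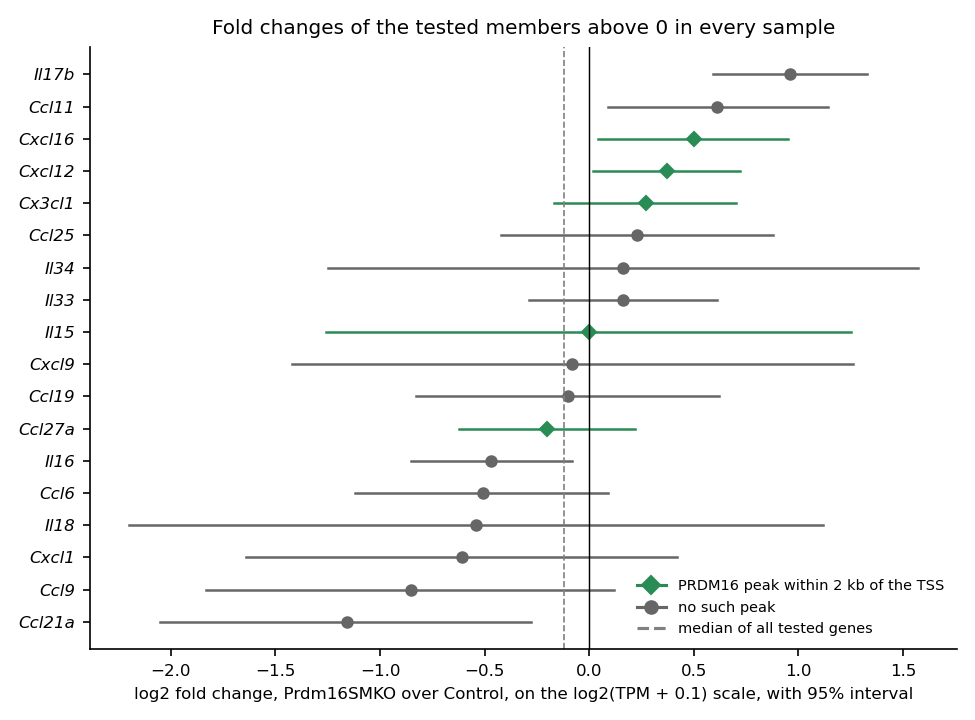
Log2 fold changes of *Prdm16*SMKO over control with 95% intervals are plotted for the 18 tested members with a TPM above 0 in every aorta, those with a PRDM16 peak at the promoter as green diamonds, the others as gray circles, and the median of all tested genes (−0.12) as a dashed line. *Il17b* has the highest value at 0.96, and members with a peak run from −0.20 to 0.50.

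The receptors and pathway genes around these ligands were taken from 5 lists of 127 genes, of which 78 were tested and 0 were called by limma, with 11 at an unadjusted *P* value under 0.05, against 12.7% of all tested genes. Chemokine receptors were scarce, with 6 of 23 tested and a median log2 fold change of −0.17. Their summed level was 29.6 to 31.4 TPM in control and 23.7 to 24.8 TPM in knockout aortas. Besides *Ackr3*, the groups did not overlap for *Ccrl2*, which binds the chemoattractant chemerin, with TPM of 9.30, 7.61 and 8.85 in control and 6.54, 7.42 and 4.74 in knockout aortas (log2 fold change −0.47, limma adjusted *P* = 0.367).

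Interleukin receptors numbered 22 tested of 40, with a median log2 fold change of −0.06, and for 8 of them the groups did not overlap, 1 higher and 7 lower, where the groups did not overlap for 19% of all tested genes, 4.08% higher and 14.9% lower. *Csf2rb*, the shared β chain for interleukin-3, interleukin-5 and GM-CSF, had TPM of 2.63, 1.91 and 2.31 in control and 1.25, 0.87 and 1.42 in knockout aortas (log2 fold change −0.91, SE 0.30, limma adjusted *P* = 0.247). *Il2rb*, which transmits interleukin-2 and interleukin-15 signals, had 0.63, 1.07 and 0.43 TPM in control and 0.33, 0.35 and 0.23 TPM in knockout aortas (log2 fold change −0.94, limma adjusted *P* = 0.551). *Il11ra1*, the interleukin-11 receptor and the most abundant of the list, missed the threshold with a log2 fold change of −0.51 (limma adjusted *P* = 0.097) and passed it after rescaling by median ratio (−0.39, limma adjusted *P* = 0.0165) and quantile normalization (−0.36, limma adjusted *P* = 0.02). It ends within 8 bp of overlap with *Ccl27a* on the opposite strand.

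Among 22 tested genes of the NF-κB pathway and its classic targets (median log2 fold change −0.13), *Ptgs2*, the inducible cyclooxygenase, had TPM of 12.2, 9.01 and 7.99 in control and 2.74, 4.96 and 4.75 in knockout aortas. The groups did not overlap and the difference was not called (log2 fold change −1.23, SE 0.26, limma adjusted *P* = 0.0721). *Rel*, an NF-κB subunit, had 1.56, 1.70 and 1.84 TPM in control and 1.21, 1.36 and 1.00 TPM in knockout aortas (−0.49, limma adjusted *P* = 0.527). Among 19 tested JAK-STAT and SOCS genes (median −0.06), *Ptpn11*, the phosphatase SHP2, and *Stat3* stood at log2 fold changes of −0.30 (limma adjusted *P* = 0.332) and −0.23 (limma adjusted *P* = 0.464), without overlap between the groups. *Socs2*, a feedback inhibitor of cytokine signals, had 0.40 (limma adjusted *P* = 0.343) and was called in the same 2 rescaled settings as *Il11ra1*. The study's list of differentially expressed genes with a PRDM16 promoter peak has *Socs2* as higher and the interleukin receptor *Il4ra* as lower. Here *Il4ra* had a log2 fold change of −0.64, lower too, and was not called (limma adjusted *P* = 0.145). The study's calls come from its own RNA-Seq analysis, whose test its methods do not name, and are more numerous than those made here. A call there and none here are therefore not like for like. Of the related ligands and inhibitors, such as *Csf1*, *Lif* and *Il1rn*, 9 of 21 were tested, the median was −0.02, and 0 had groups without overlap.

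PRDM16 peaks were then placed at these genes. A promoter peak is a deposited peak of the PRDM16 library whose centre lies within 2 kb of the start site (TSS) of a curated RefSeq transcript of GRCm38. Of 66 members with such a TSS, 7 had a promoter peak (10.6%), against 26.6% of all 25129 genes with a TSS. Among tested genes it was 5 of 21 members (23.8%) against 43.5% of all, and among genes not tested 2 of 45 (4.44%) against 7.87%. The vector library held only 67 peaks and had a promoter peak at 2 of all 25129 genes. That it had 0 members with a promoter peak therefore says nothing particular to the members. The peaks come from 1 library in another cell type, so that peak values are unreplicated and were not tested.

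The peak at *Cxcl12* was the strongest of the members. It spanned 757 bp from 117168377 to 117169133 on chromosome 6, covered the TSS at 117168535, and had its summit 267 bp downstream in an intron, with a fold enrichment of 10.5 over the local background and a −log10 q of 20.4. This was higher than the fold enrichment of 97.6% of the 11271 PRDM16 peaks, whose median was 5.27. The peak takes in the end nearest the start site of the *Cxcl12* stretch printed before, whose promoter entry has 64.7% GC and 20 CpG over 300 bases.

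*Ccl27a* had a peak from 41773719 to 41773961 on chromosome 4, downstream of its TSS at 41774101, with the summit in an untranslated exon, a fold enrichment of 7.44 and a −log10 q of 12.2, above 87.5% of peaks. *Cxcl16* had one from 70459467 to 70459739 on chromosome 11 with a fold enrichment of 5.98, its centre 381 bp downstream of the *Cxcl16* TSS and 170 bp from that of *Zmynd15*, which is transcribed the other way, so that the peak cannot be assigned to either gene. *Il15* had a peak of 672 bp on chromosome 8, from 82402406 to 82403077, that covered the TSS at 82402586, with a fold enrichment of 5.89. *Ccl2* had a peak of 233 bp from 82035574 to 82035806 on chromosome 11 with its summit 43 bp downstream of the TSS, in the untranslated part of the first exon, and a fold enrichment of 5.27, equal to the median of all peaks.

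*Cx3cl1* and *Cxcl10* had the weakest peaks. That at *Cx3cl1* ran from 94772293 to 94772534 on chromosome 8 with a fold enrichment of 4.34 and its summit in an intron. That at *Cxcl10*, from 92348610 to 92348872 on chromosome 5, had a fold enrichment of 3.41, above 4.77% of peaks only, and a q of 0.0133. It is 1 of 437 deposited PRDM16 peaks (3.88%) with a q above 0.01. The peak lies inside the gene, next to the upstream stretch with the NF-κB type and AP-1 matches, and *Cxcl10* itself, an interferon-induced chemokine for T cells, had TPM of 0.29, 0.59 and 1.23 in control and 0, 0.42 and 0.37 in knockout aortas, too low for a test.

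**Figure D5:**
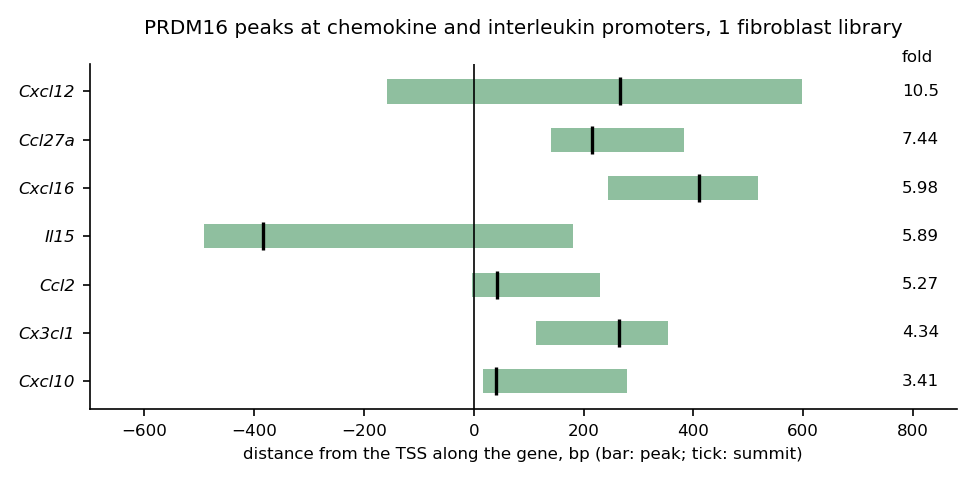
Each bar is the extent of a PRDM16 peak in bp from the TSS along the gene, with a tick at the summit and the fold enrichment at the right, for the 7 members with a promoter peak. *Cxcl12*, *Il15* and *Ccl2* have peaks that cover the TSS, and fold enrichment runs from 3.41 at *Cxcl10* to 10.5 at *Cxcl12*.

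Peaks and expression were then set side by side. The log2 fold changes of the 5 tested members with a promoter peak were 0.50 for *Cxcl16*, 0.37 for *Cxcl12*, 0.27 for *Cx3cl1*, −0.00 for *Il15* and −0.20 for *Ccl27a*, a median of 0.27, and 0 of the 5 were called. The peak at *Cxcl16* is counted here, although it cannot be assigned to *Cxcl16* rather than *Zmynd15*. The tested members without a peak had a median of −0.28. They include *Ccl12* and the chromosome 4 row of *Ccl21b*, each of which reached the filter through 1 group only. Over all tested genes the medians were −0.11 with and −0.12 without a promoter peak, so the gap among members was not seen in genes at large, and with 5 genes it was not tested.

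*Il17b*, *Ccl12*, *Il16* and *Ccl21a*, whose groups did not overlap, lacked a promoter peak. For *Il17b* the nearest peak was centred 22.1 kb upstream of the TSS, outside any annotated gene, with a fold enrichment of 8.79, above 93.8% of peaks. For *Il16* it was 4.15 kb upstream of the RefSeq TSS, within an intron of a longer annotated transcript, with a fold enrichment of 4.22, and for *Ccl21a* it was 176 kb away. The peak at *Ccl2* was the nearest for *Ccl7*, *Ccl11*, *Ccl12* and *Ccl8* too, at 10, 22.1, 66.2 and 79.5 kb upstream of their TSSs. Over the 59 members without a promoter peak, the nearest peak lay at a median of 49.7 kb (4.15 to 295 kb), and for 47 of them beyond 20 kb.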

How the data were processed

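RNA-Seq covered 3 control and 3 Prdm16SMKO thoracic aortas, and ChIP-Seq 1 anti-Flag library each of fibroblasts with PRDM16 or vector. For RNA-Seq the authors deposited TPM per gene and aorta. The labels give poly(A)-selected NEBNext Ultra libraries with 151 bp paired reads, and the submitters' processing notes name cutadapt 2.3, STAR 2.7.8a, RSEM 1.3.3, Bowtie2 2.3.4.1, MACS2, HOMER 4.11 and GRCm38. The annotation release behind the TPM is not given in the sources used here. The columns named WT and KO were taken as the control and Prdm16SMKO samples of the same number. TPM depend on the whole library, in which 1 gene held 20.2% to 28.2% and mitochondrial genes 14.7% to 26.5% of the total. MACS2 was run by the authors on each library (q of 0.01, human genome size preset), on 101 bp paired reads, and which library served as the control is not stated. The deposited peak lists hold the fold enrichment as a ratio, −log10 p, −log10 q, and an integer score that was not used. Columns not mapped to a sample numbered 0. The IgG libraries were not analysed here.

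Differential expression was fitted with limma 3.58.1 in R 4.3.3 (lmFit, eBayes with trend) on log2(TPM + 0.1) without covariates, for the 15668 genes whose mean TPM reached 0.5, over which *P* values were adjusted. The script was tested on simulated data. Peaks were placed with Python 3.11.15 and pandas 2.3.3 on curated RefSeq TSSs of GRCm38, and gene positions are those of GENCODE for GRCm38. Sequences are those of RefSeq, where 47 members had an entry. The members, the 5 pathway lists, the 14 marker lists and the tests were chosen with earlier results of these data known. Values per aorta are given for members that were called, whose groups did not overlap, that were among the 8 highest in mean TPM, or that had a promoter peak and a mean TPM of at least 0.5, and from each pathway list for the 2 genes with the largest fold change among those without overlap. Other genes were named after their values were seen, such as the neighbours and receptors of those members.

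The alternatives tried were a pseudocount of 1 or 0.01, a filter at a mean of 1 TPM or none, median-ratio rescaling, quantile normalization, eBayes with the trend off, a replicate block, each aorta left out in turn, other promoter windows and peak positions, a q of at most 0.001 and GENCODE TSSs. Summing near-identical copies was chosen after seeing the data.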

Additional observations from a re-analysis of the deposited data

How the results depend on the processing

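All genes tested gave 168 calls (61 higher and 107 lower, 36.3% higher). The count was 110 without a filter on TPM and 48 without limma's trend, and 411 (196 higher and 215 lower, 47.7% higher) and 392 (189 and 203) after median-ratio rescaling and quantile normalization, which moved the median of all genes from −0.12 to 0.00 and −0.01. Leaving out 1 aorta at a time gave 91 to 141 calls. Members called numbered 2 after either rescaling (*Il17b* and *Ccl12*). *Ccl12*, at 0 in every control aorta, entered the test only through the knockout aortas, here and in the settings that follow. Its calls are therefore a description only. Without a filter and without a trend there was 1, *Ccl12* in place of *Il17b* (adjusted *P* for *Il17b* of 0.0704 and 0.118 by limma). With 1 aorta left out there were 0 to 1: 0 without any 1 control aorta or without *Prdm16*SMKO aorta 1, 1 (a contig row of *Ccl27a*) without *Prdm16*SMKO aorta 2, and 1 (*Il17b*) without *Prdm16*SMKO aorta 3. The contig row called there (ENSMUSG00000093828) was at 0 in the remaining knockout aortas and then passed the filter only through the controls. Its call is a description only, and the summed *Ccl27* rows were not called. Pathway genes called numbered 2 after either rescaling and 0 in the other alternatives. The median of the tested members, −0.09, ranged from −0.33 to 0.15 with 1 aorta left out, at −0.33 without *Prdm16*SMKO aorta 3 and 0.15 without *Prdm16*SMKO aorta 2. The sign turned for *Ccl19*, from −0.10 to 0.02 after median-ratio rescaling, 0.07 without control aorta 3 and 0.27 without *Prdm16*SMKO aorta 2 (−0.37 to 0.27 with 1 aorta left out), and for *Ccl27a*, to 0.00 without *Prdm16*SMKO aorta 3 (−0.32 to 0.00). It turned for *Il15*, from −0.00 to 0.05 with a pseudocount of 1, 0.11 and 0.06 after the 2 rescalings, 0.20 and 0.04 without control aorta 2 and 3, and 0.43 and 0.17 without *Prdm16*SMKO aorta 1 and 2 (−0.60 to 0.43 with 1 left out). The cause was not tested. *Ccl12* was not tested with a mean TPM of at least 1 or without *Prdm16*SMKO aorta 3, since it then missed the filter.

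The promoter peak count of 7 was 9 with a window of 5 kb (with *Ccl5* and *Il16*), 9 with GENCODE TSSs (with *Il16* and *Il34*) and 6 at a q of at most 0.001 (without *Cxcl10*).

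Replicate numbers gave no sign of pairing, as deviations of same-numbered aortas from their group means had correlations of −0.0246, −0.07 and −0.00896. With the replicate number as a block, 184 genes were called, 1 member (*Il17b*) among them, and the members' median was −0.09. Depth is unknown from TPM and from the peak lists, so how small a difference or peak could have been seen at low genes cannot be given.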
